A study of Bos taurus with 6 samples.

Results

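Genes of heme breakdown, iron handling and antioxidant defence were followed in bovine articular chondrocytes, the matrix-producing cells of joint cartilage. The 10 genes were HMOX1, TFRC, FTH1, NQO1, GCLM, GCLC, TXNRD1, PRDX1, GPX1 and NFE2L2, chosen by name, and every probe set of the array whose only annotated gene symbol was one of them was taken. This gave 12 of 24016 probe sets (10 of 9155 named genes), since GPX1 and NFE2L2 have 2 probe sets each and the other 8 genes have 1. The cells were kept in micromass culture, in which they are plated as dense drops, and RNA was measured on Affymetrix Bovine Genome arrays. The TGF-β group was 3 cultures that had received TGF-β1 at 5 ng/ml and were harvested after 8 hours, and the untreated group was 3 cultures without TGF-β1, which one label describes as untreated and another as vehicle. The cartilage came from abattoir cattle, whose age is not given in the sources used here, and each of 3 cows gave a treated and an untreated culture.

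Heme oxygenase, encoded by HMOX1, opens the heme ring and releases iron, biliverdin and carbon monoxide. Cells take up iron bound to transferrin through the transferrin receptor (TFRC), store it in ferritin (FTH1 encodes the heavy chain) and lower the receptor's message when iron is plentiful. NRF2, the product of NFE2L2, is a transcription factor that is held down by KEAP1 and, when released by oxidants, switches on HMOX1, NQO1, both subunits of glutamate-cysteine ligase (GCLC and GCLM), TXNRD1 and PRDX1. Ferritin genes are also among its targets, and the HMOX1 gene is further held down by the heme-sensing repressor BACH1.

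With TGF-β, HMOX1, NQO1 and 1 of the 2 probe sets of GPX1 fell, TFRC rose by a smaller step, and the other 8 probe sets did not pass the test. HMOX1 was 1.90-fold lower in TGF-β cultures, NQO1 1.77-fold lower and GPX1 1.57-fold lower, and TFRC was 1.40-fold higher. In such bulk RNA, fewer cells of a kind and less RNA per cell cannot be told apart. The transcription factor gene NFE2L2 itself had log2 differences of -0.12 and -0.13. The words rose and fell are used where a limma model that includes the replicate number (the paired fit) gave a Benjamini-Hochberg adjusted p under 0.05 over all 24016 probe sets. In that fit 3.46% of all probe sets were called lower and 2.44% higher, against 3 and 1 of the 12 here. At an unadjusted p under 0.05 the paired fit had 4720 of all 24016 probe sets, 2655 lower and 2065 higher, against 4 and 1 of the 12. Without the replicate number, limma put 0 of 24016 probe sets past the threshold (1377 at an unadjusted p under 0.05), and the methods' unequal-variance test also put 0 there (1032 unadjusted), so each call below rests on the pairing.

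Values are log2 signals from which the median of the 6 arrays was taken off for each probe set. A value therefore says how an array stands relative to the others for that probe set, and the level of a gene, or its order against other genes, cannot be read. For the same reason the labelled cell type could not be checked by the level of its markers, only their differences between arrays. Arrays stood apart in other ways, whose part in the values of these genes was not tested. Over 23 probe sets of the cell cycle, the median lay 1.94 log2 units higher on the replicate 3 array than on replicates 1 and 2 among TGF-β arrays, and 1.95 higher among untreated arrays. The TGF-β array of replicate 2 had a median of 1.53 over 18 spike-in controls, against -0.17 to 0.06 on the other 5 arrays. All 5 probe sets of a short list of known TGF-β targets rose, with log2 differences of 0.79 (JUNB) to 3.39 (TGFBI). Markers of erythroid cells, which carry much of the body's heme and iron, had log2 differences of -0.11 to 0.19 over 10 probe sets, and 0 of them had an unadjusted p under 0.05 in the paired fit, in limma without the replicate number or in the unequal-variance test. The 10 probe sets of leukocyte markers (-0.08 to 0.19) and the 12 of endothelial markers (-0.09 to 0.19) likewise had 0 at that level in these 3 tests, whereas fibroblast markers moved: 2 of 12 probe sets fell, both of COL1A2 (-0.49 and -0.65), and 5 of 12 had an unadjusted p under 0.05 in the paired fit, 4 lower and 1 higher. Over all probe sets, 4720 of 24016 had an unadjusted p under 0.05 in the paired fit. The fit called 16.7% of the fibroblast probe sets lower, beside 3.46% of all probe sets. The part of these marker differences in the results below was not tested. Among 24 probe sets of chondrocyte markers, 4 rose (PRG4 and COMP), 4 fell (COL11A1) and 16 did not pass the test. That is 16.7% higher and 16.7% lower, beside 2.44% and 3.46% of all probe sets. Other probe sets of PRG4 and COL11A1 were among those that did not pass.

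HMOX1, which encodes the inducible heme oxygenase, had values of -0.76, -1.01 and -0.18 in replicates 1, 2 and 3 of the TGF-β cultures, against 0.18, 0.27 and 0.37 in the untreated cultures. All 3 TGF-β arrays lay below all 3 untreated arrays, and HMOX1 was the 1 of the 12 probe sets in which the groups did not overlap (4.91% of all probe sets were lower without overlap and 6.11% higher). The spread was wider in TGF-β cultures (SD 0.43, n = 3) than in untreated cultures (SD 0.10, n = 3). The log2 difference was -0.93 (SE 0.145, 95% interval -1.26 to -0.60, n = 3 pairs, adjusted p = 0.00842 by limma's paired fit), with -0.94, -1.28 and -0.55 in the 3 pairs. Of all 24016 differences, 0.725% were as low or lower. Without replicate 2, the pair with the largest decrease and the array with bright spike-in controls, the difference was -0.75 and the adjusted p 0.0579.

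TFRC, which encodes the transferrin receptor, ran the other way. Its values were 0.28, -0.16 and 0.87 in the TGF-β cultures and -0.15, -0.47 and 0.15 in the untreated cultures, so the groups overlapped while each TGF-β culture lay above its untreated partner. The log2 difference was 0.49 (SE 0.119, 95% interval 0.22 to 0.76, n = 3 pairs, adjusted p = 0.0496), with 0.43, 0.31 and 0.72 in the pairs. This call was the closest of the 4 to the threshold. It was lost without any of the 3 replicates (adjusted p = 0.138, 0.0906 and 0.207 without replicates 1, 2 and 3) and when each array was centred on its median (0.0574). TFRC was also high in replicate 3, by 0.82 log2 units over replicates 1 and 2 in TGF-β cultures and by 0.47 in untreated cultures, where the cell cycle list was high too. Of the 23 probe sets of the cell cycle list 0 rose and 2 fell (MCM4 and TYMS). That is 0% and 8.70%, beside 2.44% and 3.46% of all probe sets. The median log2 difference of the list was -0.14, beside 0.01 over all probe sets. Any link between TFRC and the cell cycle list was not tested.

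FTH1, the ferritin heavy chain gene, varied least of the 12 probe sets, with a range of 0.46 log2 units over the 6 arrays. It had 0.02, -0.02 and -0.34 in the TGF-β cultures, against 0.08, 0.13 and -0.23 in the untreated cultures. Each TGF-β value lay a little below its partner, by 0.06 to 0.14 log2 units, and the difference of -0.11 did not pass the test (SE 0.104, 95% interval -0.34 to 0.13, adjusted p = 0.662).

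**Figure D1:**
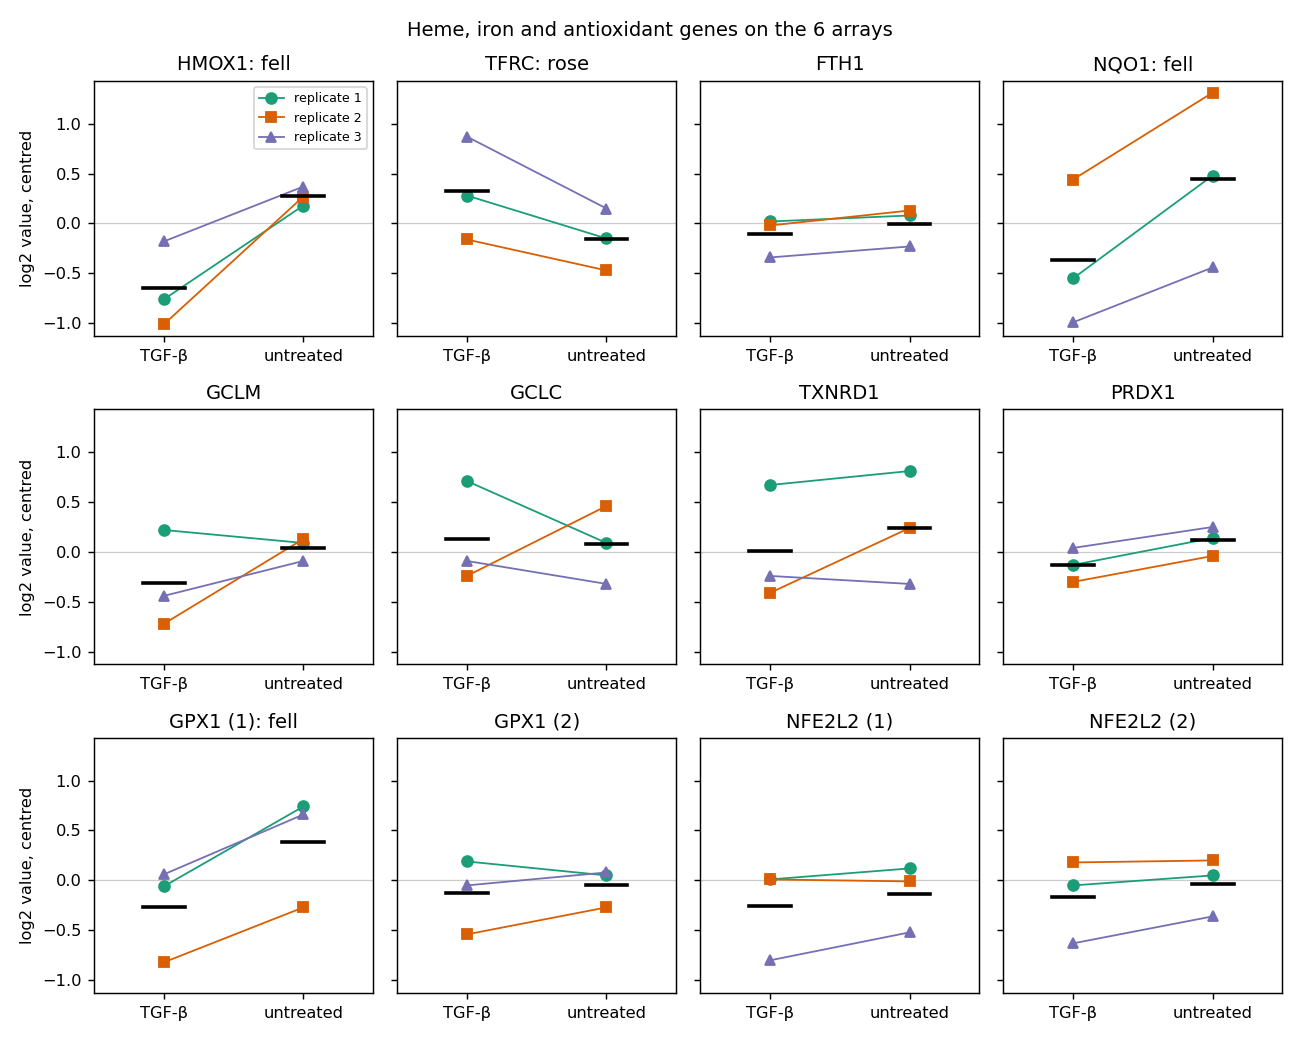
Centred log2 value (vertical axis) of the 12 probe sets on the TGF-β and untreated arrays, 1 panel per probe set, with the arrays of 1 replicate joined by a line and the group mean as a black bar. HMOX1 is the panel in which the 3 TGF-β arrays all lie below the 3 untreated arrays. In the NQO1 panel the 3 lines lie at different heights, each with the TGF-β array below its untreated partner.

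NQO1 encodes a quinone reductase and is a standard readout of NRF2 activity in mammalian cells. It had -0.55, 0.44 and -0.99 in the TGF-β cultures and 0.48, 1.31 and -0.44 in the untreated cultures. Replicates differed more than treatments: the range over the 6 arrays was 2.30 log2 units, the widest of the 12, with replicate 2 high and replicate 3 low in both groups. Within pairs the TGF-β culture was lower each time, with -1.04, -0.87 and -0.55, and the log2 difference was -0.82 (SE 0.124, 95% interval -1.10 to -0.54, n = 3 pairs, adjusted p = 0.0073). Without the replicate number the SE was 0.532 and the unadjusted p 0.172. Leaving out replicate 2 gave -0.79 with an adjusted p of 0.0598.

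GPX1 encodes a selenium-dependent enzyme that reduces hydrogen peroxide with glutathione. The probe set that the annotation pairs with a RefSeq mRNA had -0.06, -0.82 and 0.06 in the TGF-β cultures, against 0.74, -0.27 and 0.66 in the untreated cultures. Replicate 2 was low in both groups, and the pairs differed by -0.80, -0.55 and -0.60. The log2 difference was -0.65 (SE 0.110, 95% interval -0.90 to -0.40, n = 3 pairs, adjusted p = 0.0117). The other GPX1 probe set had 0.19, -0.54 and -0.05 in the TGF-β cultures and 0.05, -0.27 and 0.08 in the untreated cultures, and a difference of -0.08 (95% interval -0.35 to 0.19, adjusted p = 0.788). The first probe set was lower than the second by 0.95, 0.28 and 0.48 log2 units in the differences of pairs 1, 2 and 3. The mean of the 2 probe sets had a difference of -0.37 and an adjusted p of 0.0558 over genes, and the first probe set alone had 0.0736 without replicate 1 and 0.0829 after quantile normalization, so the fall of GPX1 depends on which probe set, replicate and normalization is taken.

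Glutamate-cysteine ligase makes the first bond of glutathione. Its modifier subunit gene, GCLM, had 0.22, -0.72 and -0.44 in the TGF-β cultures and 0.09, 0.13 and -0.09 in the untreated cultures (difference -0.35, SE 0.171, 95% interval -0.74 to 0.03, adjusted p = 0.305). The catalytic subunit gene, GCLC, had 0.71, -0.24 and -0.09 in the TGF-β cultures and 0.09, 0.46 and -0.32 in the untreated cultures (difference 0.05, SE 0.214, 95% interval -0.43 to 0.54, adjusted p = 0.932). TXNRD1, which encodes the cytosolic thioredoxin reductase, had 0.67, -0.41 and -0.24 in the TGF-β cultures and 0.81, 0.24 and -0.32 in the untreated cultures (difference -0.23, SE 0.147, 95% interval -0.57 to 0.10, adjusted p = 0.448).
These genes did not pass the test, and their pairs disagreed, with pair 2 the lowest for each. In pair 2 the TGF-β culture was lower in all of them, with differences of -0.85 for GCLM, -0.70 for GCLC and -0.65 for TXNRD1. In pair 1 the differences were 0.14, 0.63 and -0.13, and in pair 3 they were -0.36, 0.23 and 0.08. The direction of GCLC turned with the replicate left out: it was -0.23 without replicate 1, 0.43 without replicate 2 and -0.04 without replicate 3. Pair 2 holds the array with the bright spike-in controls, whose part in these values was not tested. Over all probe sets the median difference in pair 2 was 0.03, against -0.01 in pair 1 and 0.00 in pair 3.

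PRDX1, which encodes an abundant peroxiredoxin, had the most even pairs. It had -0.13, -0.30 and 0.04 in the TGF-β cultures, against 0.14, -0.04 and 0.25 in the untreated cultures, which gave -0.27, -0.26 and -0.21 in the pairs. The SD of these 3 differences was 0.03, and the SE of 0.104 is larger because limma draws each variance toward that of all probe sets. The difference of -0.24 had an unadjusted p of 0.0437 and an adjusted p of 0.235 in the paired fit.

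NFE2L2, the NRF2 gene, gave close values on its 2 probe sets. The first had 0.01, 0.01 and -0.80 in the TGF-β cultures and 0.12, -0.01 and -0.52 in the untreated cultures (difference -0.12, 95% interval -0.38 to 0.13, adjusted p = 0.625). The second had -0.05, 0.18 and -0.63 in the TGF-β cultures and 0.05, 0.20 and -0.36 in the untreated cultures (difference -0.13, 95% interval -0.38 to 0.12, adjusted p = 0.600). Their differences were within 0.03 log2 units of each other in every pair. What set NFE2L2 apart was the replicate, since replicate 3 lay 0.81 and 0.70 below replicates 1 and 2 in TGF-β cultures (first and second probe set), and 0.58 and 0.48 below them in untreated cultures.

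**Figure D2:**
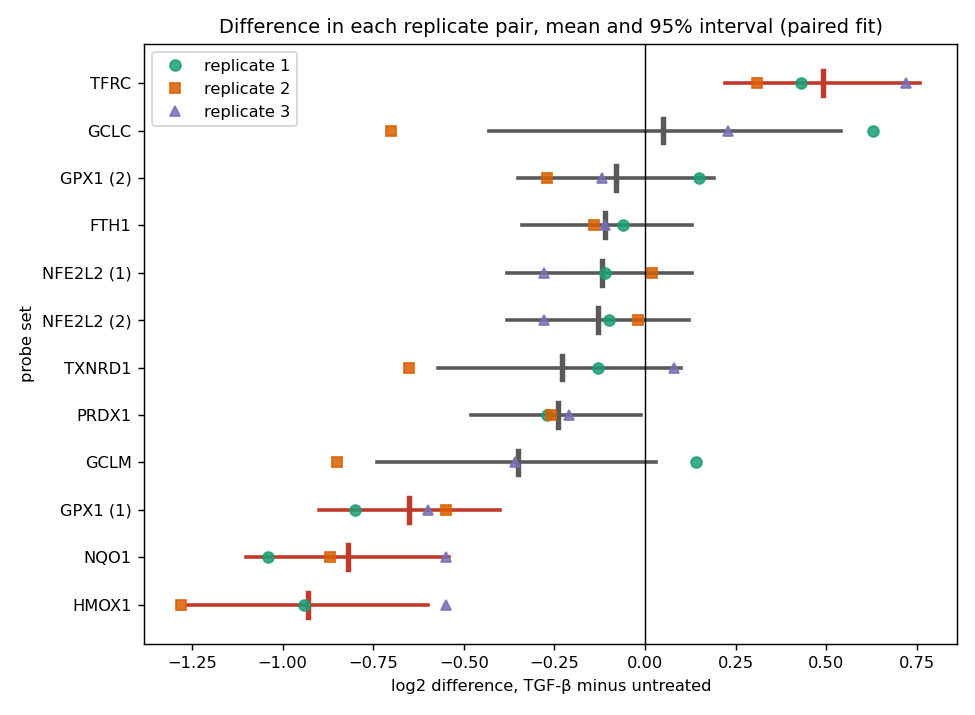
Log2 difference, TGF-β minus untreated (horizontal axis), of each probe set in each of the 3 pairs (symbols), with the mean (vertical bar) and 95% interval (line) of the paired fit, in red where the adjusted p was under 0.05. HMOX1, NQO1 and 1 probe set of GPX1 lie below 0 and TFRC above 0 in every pair, while GCLM, GCLC and TXNRD1 have replicate 2 on the far left.

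Of the 12 probe sets, 10 had a mean below 0. The TGF-β culture was lower in all 3 pairs in 6 of them (HMOX1, FTH1, NQO1, PRDX1, 1 of GPX1 and 1 of NFE2L2) and higher in all 3 in 1 (TFRC), where 20.0% of all probe sets were lower in all 3 pairs and 20.6% higher. The median difference was -0.18 log2 units, beside 0.01 over all probe sets. By pair, 8, 10 and 9 of the 12 were lower with TGF-β in pairs 1, 2 and 3, beside 12323, 11054 and 11955 of all 24016 probe sets.

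Replicates also differed from one another. NQO1 lay lower in replicate 3 than in replicates 1 and 2 by 0.93 log2 units in TGF-β cultures and by 1.33 in untreated cultures, and TXNRD1 by 0.36 and 0.84 in the same order. TFRC, PRDX1, HMOX1 and both probe sets of GPX1 lay higher in replicate 3 in both groups, with 0.71 for HMOX1 in TGF-β cultures and 0.14 in untreated cultures. The NRF2 targets among the 10 genes therefore stood on both sides, NQO1 and TXNRD1 low and HMOX1 and PRDX1 high in replicate 3. Whether the replicate differences come from the animal, the culture or the array cannot be told apart here.

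**Figure D3:**
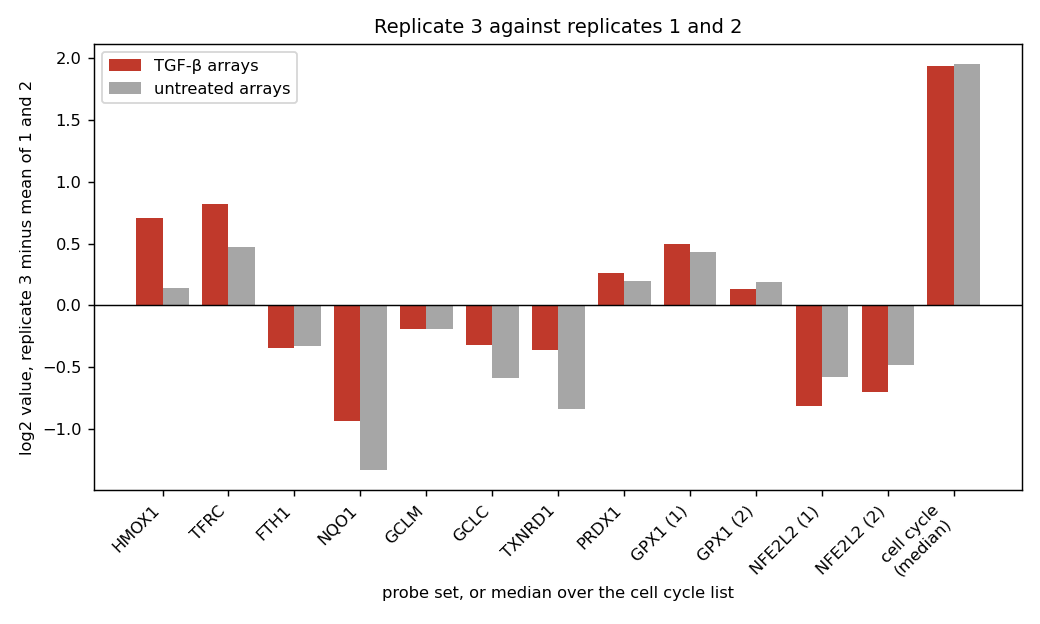
Log2 value on the replicate 3 array minus the mean of replicates 1 and 2 (vertical axis), in TGF-β arrays (red) and untreated arrays (grey), for the 12 probe sets and for the median of the cell cycle list. NQO1, NFE2L2 and TXNRD1 lie below 0 and TFRC and GPX1 above 0 in both groups, and the cell cycle median lies at 1.94 and 1.95.

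Other genes of these pathways were counted in 6 lists, which leave out the 10 genes above. Together they hold 115 probe sets of 85 genes, and 3 probe sets rose and 20 fell, that is 2.61% and 17.4%, beside 2.44% and 3.46% of all probe sets. The median difference was -0.13, beside 0.01. The 20 became 8 without replicate 1, 4 without replicate 2, 17 without replicate 3 and 7 after quantile normalization, and the 3 stayed 3 under each of these. Lists of this kind share regulators, so their genes are not independent of one another.

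In the iron list (23 probe sets of 18 genes), both probe sets of STEAP3 rose. STEAP3 encodes the endosomal reductase that turns transferrin-borne iron into the form that can leave the endosome, and so acts downstream of the transferrin receptor. The first probe set had 1.02, 0.24 and 0.63 in the TGF-β cultures, against -0.24, -1.57 and -0.47 in the untreated cultures. The groups did not overlap (6.11% of all probe sets were higher without overlap), and the log2 difference was 1.39 (SE 0.147, n = 3 pairs, adjusted p = 0.0015). The second probe set gave 1.24 (adjusted p = 0.00271).
In the same list 4 genes fell. All 3 probe sets of CP, which encodes ceruloplasmin, a copper enzyme that oxidizes iron as it leaves cells, fell by 0.93, 0.86 and 0.68 log2 units. For the first of these the TGF-β cultures had -0.62, 1.34 and -1.80 and the untreated cultures 0.62, 2.07 and -0.98, so that replicate 2 was high and replicate 3 low in both groups, as for NQO1. SLC25A37, a mitochondrial iron importer gene (-0.58, adjusted p = 0.025), 1 of 2 probe sets of CYBRD1, which encodes a plasma membrane iron reductase (-0.58, adjusted p = 0.0344), and 1 of 2 of ISCU, the scaffold of iron-sulfur clusters (-0.46, adjusted p = 0.0464), also fell. Each of these 3 lost its call without replicate 1 or 2 and after quantile normalization, and ISCU also without replicate 3. The first CP probe set kept its call in each of these fits, and the other CP probe sets lost theirs without replicate 1 (0.0748 and 0.137) and after quantile normalization (0.148 and 0.177). The 6 probe sets that fell in this list became 1 without replicate 1, 3 without replicate 2, 5 without replicate 3 and 1 after quantile normalization. Of the 23 probe sets 8.7% rose and 26.1% fell, beside 2.44% and 3.46% of all probe sets. The list's median was -0.07.

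The glutathione list showed the lowest median of the 6, -0.44 log2 units over 21 probe sets of 19 genes, with 8 probe sets of 7 genes that fell and 0 that rose (1 higher at an unadjusted p under 0.05 in limma's paired fit). That is 38.1% and 0%, beside 3.46% and 2.44% of all probe sets. Over all 24016 probe sets, 2655 were lower and 2065 higher at an unadjusted p under 0.05 in the paired fit. In the unequal-variance test 1032 of the 24016 passed an unadjusted p under 0.05. GPX3, which encodes the secreted glutathione peroxidase, had -0.68, -0.34 and 0.05 in the TGF-β cultures and -0.05, 0.74 and 1.21 in the untreated cultures, a difference of -0.96 (SE 0.130, n = 3 pairs, adjusted p = 0.0048). GPX4, whose product reduces lipid peroxides, had -0.47 (adjusted p = 0.0339). The glutathione transferase genes GSTA4 (-0.66), MGST3 (-0.61) and 2 of 3 probe sets of GSTK1 (-0.58 and -0.45) fell, as did GGCT, a gene of glutathione breakdown (-0.48), and MGST2 (-0.53), the last named only because it completes the count. GPX3 kept its call without replicate 1 or 3 and, alone of the 7 genes, after quantile normalization. It had an adjusted p of 0.0501 without replicate 2, and 0 of these 8 probe sets were past the threshold without replicate 2 (limma's paired fit; 13 of the list's 21 were lower at an unadjusted p under 0.05 with all 3 pairs, and 2 of the 21 passed an unadjusted p under 0.05 in the unequal-variance test).

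Among the 27 probe sets of thioredoxins, peroxiredoxins, superoxide dismutases and other peroxide enzymes, 4 fell and 0 rose (1 higher at an unadjusted p under 0.05 in limma's paired fit, and 2 in either direction in the unequal-variance test). That is 14.8% and 0%, beside 3.46% and 2.44% of all probe sets. At an unadjusted p under 0.05, 2065 of all 24016 were higher in the paired fit, and 1032 passed in the unequal-variance test. Catalase (CAT) had -0.52 (adjusted p = 0.0237). MSRB2, which encodes a mitochondrial methionine sulfoxide reductase, had -0.72 (adjusted p = 0.0126). For SOD3, the extracellular superoxide dismutase gene, 1 probe set had -0.68 (adjusted p = 0.0154) and the other -0.02. For SESN1, a stress-induced sestrin gene, 1 of 3 probe sets fell, with pairs of -0.53, -0.84 and -1.89 (adjusted p = 0.026), and the others had -0.12 and 0.11. The groups did not overlap for CAT, MSRB2 and the SESN1 probe set that fell. In this list 5 of 27 probe sets were lower without overlap and 1 higher, beside 4.91% and 6.11% of all probe sets. The peroxiredoxin genes PRDX2 to PRDX6, named here as relatives of PRDX1, had differences of -0.22 to 0.39 and did not pass the test (lowest adjusted p = 0.0906, for PRDX2). Without replicate 2, each of the 4 lost its call (adjusted p = 0.0834 to 0.116), and MSRB2 and CAT did so without replicate 1 too (0.0519 and 0.114).

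In the list of NADPH supply and other NRF2 targets (18 probe sets of 12 genes), UGDH rose and 2 of 3 probe sets of IDH1 fell. Of the 18 probe sets 5.56% rose and 11.1% fell, beside 2.44% and 3.46% of all probe sets. UGDH makes the UDP-glucuronic acid from which glycosaminoglycan chains are built, and it had a difference of 1.09 (SE 0.131, n = 3 pairs, adjusted p = 0.00279), with 0.85, 1.01 and 1.41 in the pairs. IDH1, a cytosolic source of NADPH, had -0.76 and -0.97 on the 2 probe sets (adjusted p = 0.0049 and 0.0176) and -0.16 on the third. The probe set with -0.97 lost its call without replicate 2 (0.102) and after quantile normalization (0.0793).

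Other genes of heme synthesis, transport and breakdown, and genes that control NRF2, had no calls in the paired fit. Of 17 probe sets of 13 heme genes 0 passed, with a median of -0.13. At an unadjusted p under 0.05 there were 5 in limma's paired fit, 4 lower and 1 higher, beside 2655 and 2065 of all 24016. There were 0 in limma without the replicate number and 1 in the unequal-variance test. Of this list 1 probe set was called lower when each array was centred on its median, and 1 gene when probe sets of a gene were averaged. The closest were ALAD, an enzyme of heme synthesis (-0.44, adjusted p = 0.0522), and BLVRB, a biliverdin reductase gene (-0.37, adjusted p = 0.0891). The 1 probe set higher at an unadjusted p under 0.05 in the paired fit was HMOX2, named here as a relative of HMOX1. It had a difference of 0.38 (adjusted p = 0.137 by limma's paired fit), with 0.60, 0.07 and 0.47 in the pairs. Of 9 probe sets of 5 genes that control NRF2, 0 passed (1, 0 and 1 at an unadjusted p under 0.05 in these 3 tests), with a median of -0.19. Here the closest were NFE2L1, a relative of NFE2L2 (-0.41, adjusted p = 0.0641), and MAFG, a small Maf partner of NRF2 (0.25, adjusted p = 0.261).

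**Figure D4:**
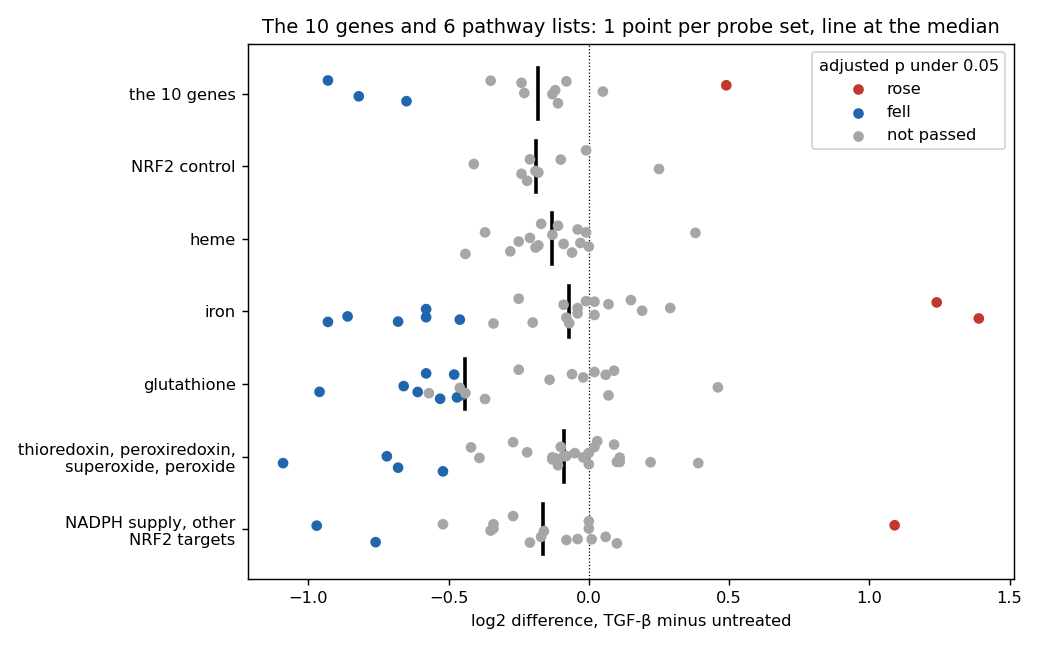
Log2 difference, TGF-β minus untreated (horizontal axis), of the 12 probe sets and of the 6 pathway lists, 1 point per probe set, coloured by the call of the paired fit, with a black line at each median. The medians run from -0.44 for the glutathione list to -0.07 for the iron list, and the 2 red points of the iron list are STEAP3.

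Since TFRC and HMOX1 are also known to respond to low oxygen, genes of the hypoxia response were set beside them. Of 20 probe sets of 12 genes, 3 rose and 2 fell, that is 15% and 10%, beside 2.44% and 3.46% of all probe sets. The median was 0.14, beside 0.01. Calls of this list were not counted with a replicate left out or after quantile normalization. Any part of low oxygen in the values of TFRC and HMOX1 was not tested. VEGFA, the angiogenic growth factor gene, rose on both probe sets (1.28 and 1.19), as did SLC2A1, a glucose transporter gene (1.76), while ADM, which encodes adrenomedullin (-0.70), and 1 of 3 probe sets of LDHA, a lactate dehydrogenase gene (-0.74), fell.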

How the data were processed

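RNA of 3 TGF-β and 3 untreated cultures was amplified in 2 rounds and hybridised to Affymetrix Bovine Genome arrays. The authors made the deposited log2 values in GeneSpring with Robust Multichip Average (RMA, which subtracts background and normalizes the arrays together), and the median of the 6 arrays is taken off each probe set (largest absolute median 5e-07), so depth or level cannot be given and dim probe sets could not be filtered. Of 24128 probe sets, 112 controls were left out. Symbols came from the array annotation, updated by Entrez ID for 13263 of 13292 probe sets with 1 symbol (86 had several, 10638 none).

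Differences were fitted with limma 3.58.1 (R 4.3.3), 2-sided, with the replicate number as a block (2 residual degrees of freedom, prior SD 0.144). Arrays of the same number were treated as pairs because the study grew each of 3 cows' cells both ways and deviations of same-numbered arrays correlated (r = 0.740, 0.694 and 0.845 across probe sets, others -0.683 to 0.185). The labels do not name the cow. No array duplicated another (at most 56 identical values in any of 15 pairings). In simulated data with 200 of 24016 probe sets changed, in 10 draws, the paired fit called 54.3% of log2 changes of 0.5 and 99.7% of changes of 1, and 10.7% of its calls were false. That share of false calls is above the threshold of 0.05. The simulated noise was normal and independent between probe sets and arrays. In the real data 585 probe sets were called higher and 832 lower, so these shares may differ there.

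Genes and lists were chosen with earlier results of these data known. Named were all probe sets of the 10 genes and, per list, up to 6 called genes or else the 2 probe sets with the smallest p. Relatives of the 10 genes were added where the text says so. The alternatives were the fit without the block, the methods' t-test, quantile normalization, median centring, a robust prior, leaving out each replicate, and gene means. A planned search for promoter motifs was not done, since no sequences were used here. Figures were drawn with matplotlib 3.10.9.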

Additional observations from a re-analysis of the deposited data

How the results depend on the processing

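Precision is limited by 3 arrays per group and by values without a level. With no replicate block, limma called 0 probe sets of any list higher or lower, as did the methods' t-test, against 585 higher and 832 lower in the paired fit (and 1 and 3 of the 12 probe sets, 3 and 20 of the pathway lists). HMOX1 then had an adjusted p of 0.506, TFRC 0.975, NQO1 0.986 and GPX1 0.960 by limma, with unadjusted p of 0.00525, 0.148, 0.172 and 0.113. Quantile normalization gave 377 higher and 443 lower over all probe sets and 7 lower in the pathway lists. Gene means gave 205 higher and 419 lower of 9155 genes, where fewer features were tested. Leaving out 1 replicate gave 272 to 590 higher and 267 to 747 lower over all probe sets, 0 higher and 1 to 3 lower of the 12, and 4 to 17 lower and 3 higher in the pathway lists. Leaving out replicate 2 gave the lowest of these counts of lower probe sets; within the iron list leaving out replicate 1 did (1, against 3 without replicate 2). The heme list gained 1 call lower with median centring and with gene means. Median centring and the robust prior each ended the call of TFRC (adjusted p = 0.0574 with median centring), which left 0 of the 12 higher. Direction was followed for the 12 probe sets of the 10 genes, and among them it turned for GCLC (-0.23, 0.43 and -0.04 without replicates 1, 2 and 3) and the second GPX1 probe set (-0.20 to 0.01, the last without replicate 2), neither of which was called. The cause of these changes was not tested.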
